A study of Mus musculus with 10 samples.

Results

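The ligands and receptors through which a B cell engages T cells were followed in the murine myeloma line J558, tumour cells derived from plasma cells, after a retrovirus had supplied Pax5. The 7 genes were Cd40, Cd80, Cd86, Cd83, Icosl, Cd274 and Icam1, chosen by name out of 19937 genes measured. Each was represented by the probe set that carries its symbol alone in the platform annotation, and where a gene had more than 1 such probe set, by the one with the highest mean. All 7 were found. Only Cd80 had a further probe set.

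The arrays came from 4 cultures given Pax5 G183S, 3 given Pax5 WT and 3 given the empty vector, which the labels call biological replicates; the p-values measure only the spread between these cultures. All carried the MSCV-PIG backbone, so every group, controls included, also expressed a puromycin resistance gene and GFP, was kept in puromycin for 5 to 7 days, and was then sorted on GFP and IgM. G183S replaces a glycine by a serine in Pax5, which sets and maintains B-cell identity and is lost as B cells become plasma cells. J558 is 1 cell line, the constructs are expressed from a virus, and the sort fixes which cells of a culture were measured.

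Activation of a T cell needs a second signal beside the antigen receptor, and B cells supply it through surface ligands. CD40 receives CD40 ligand from the T cell and signals through TRAF adaptors and NF-kB, which in normal B cells increases CD80, CD86 and ICAM-1. CD80 and CD86 bind CD28 and CTLA-4, ICOS ligand binds ICOS, PD-L1 (the product of Cd274) binds the inhibitory receptor PD-1, and ICAM-1 binds the integrin LFA-1 and holds the cells together. CD83 is a surface marker of activated B cells and dendritic cells that steadies MHC class II and CD86 on the cell surface.

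Levels are log2 values after the authors' normalization, so a difference of 1 is a doubling of signal, and levels of different genes are not set against each other. A gene was called at a limma adjusted p under 0.05, with adjustment over all 19937 genes. Pearson correlations over all genes were 0.985 to 0.998 between arrays of a group and 0.978 to 0.995 between groups. G183S replicate 1 stood apart from the other G183S arrays. On principal component 1 of all genes (42.2% of the variance) it scored 24.8, and the others scored -8.75, -21.6 and -12.6. The Pax5 WT arrays scored 39.6, 17.5 and 2.12, and the empty-vector arrays -17.1, -14.1 and -9.89. Differences of the 7 genes between G183S and empty vector are therefore given with and without G183S replicate 1. Pax5 itself averaged 9.98 ± 0.43 in G183S arrays (SD, n = 4) and 10.27 ± 0.35 in WT arrays (n = 3), against 6.98 ± 0.13 in empty-vector arrays (n = 3).

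None of the 7 genes passed the threshold in any comparison. The count was 0 of 7 for G183S against empty vector, where 0.311% of all genes were called, 0 of 7 for Pax5 WT against empty vector (1.88% of all genes), and 0 of 7 for G183S against Pax5 WT (0 of all genes). An ordinary linear model without moderation also called 0 of 7 in each. At an unadjusted p under 0.05 there were 2 of 7 for G183S against empty vector (Cd40 and Cd80; 11.3% of all genes), 3 of 7 for Pax5 WT against empty vector (Cd80, Cd86 and Cd274; 15.9%) and 2 of 7 for G183S against Pax5 WT (Cd86 and Icam1; 9.48%). Groups that did not overlap were seen for 3 genes in each comparison with empty vector, namely Cd40, Cd80 and Cd274 with G183S (11.6% of all genes) and Cd80, Cd86 and Cd274 with Pax5 WT (24.0%). By direction, 2 genes lay above and 1 below with G183S (5.02% and 6.56% of all genes), and 2 above and 1 below with Pax5 WT (11.5% and 12.5%). Between G183S and Pax5 WT only Cd86 of the 7 had groups that did not overlap (6.50%), which makes 0 above and 1 below (2.33% and 4.17%). The 2 comparisons with empty vector share their control arrays. The median log2 difference of the 7 genes was 0.43 for G183S and 0.21 for Pax5 WT, each against empty vector, beside -0.00 and 0.01 over all genes.

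**Figure D1:**
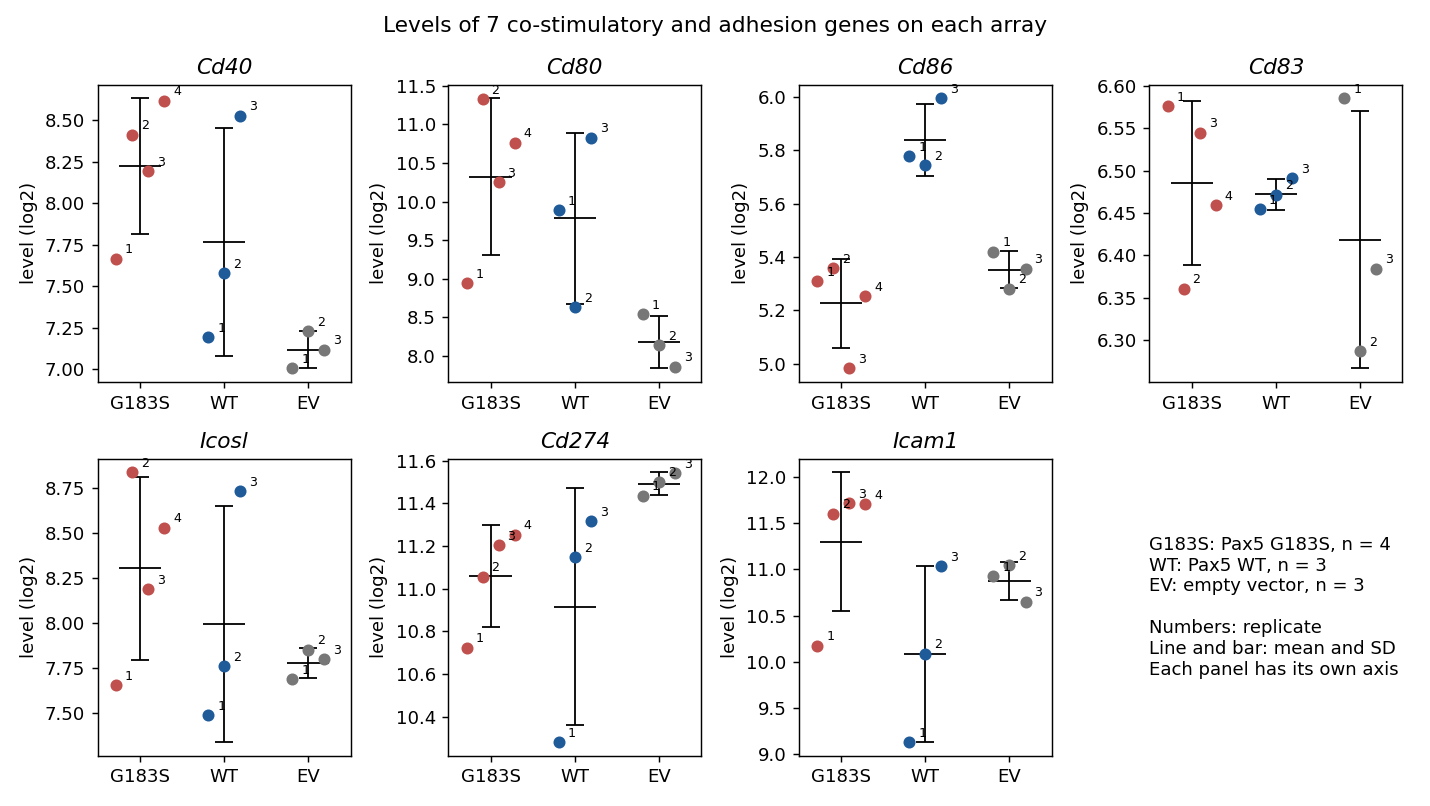
Level of each gene (log2, y axis, a separate scale per panel) on each array, by group (x axis); numbers give the replicate, and the line and bar are the group mean and SD. Cd80 and Cd40 lay above empty vector on every G183S array, Cd274 lay below it on every array with a Pax5 construct, and Cd86 was high on the 3 Pax5 WT arrays alone.

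Cd40, the receptor through which T-cell help reaches the B cell (probe set 10478678), read 7.67, 8.41, 8.19 and 8.62 in G183S replicates 1 to 4. It read 7.19, 7.58 and 8.53 in the Pax5 WT arrays and 7.00, 7.23 and 7.12 in the empty-vector arrays. All 4 G183S arrays lay above all empty-vector arrays, while Pax5 WT replicate 1 lay inside the empty-vector range and Pax5 WT replicate 3 inside the G183S range. The difference from empty vector was 1.11 ± 0.30 log2 units (SE) with G183S, or 2.15-fold, with a 95% interval of 0.44 to 1.77 (limma adjusted p = 0.151). Without G183S replicate 1 it was 1.29 (limma adjusted p = 0.0557). With Pax5 WT the difference was 0.65 ± 0.32 (limma adjusted p = 0.363), and 0.27 without Pax5 WT replicate 3. The order of means was G183S, Pax5 WT and empty vector, but neighbours in that order did not differ beyond their spread: G183S lay 0.46 above Pax5 WT with an interval of -0.21 to 1.12 (limma adjusted p = 0.613). That value was 0.17 without Pax5 WT replicate 1 and 0.84 without Pax5 WT replicate 3.

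Cd80, the B7 ligand that binds CD28 and, more tightly, CTLA-4, had the widest range of the 7 genes. Its main probe set (10435704) read 8.94, 11.32, 10.25 and 10.76 in G183S replicates 1 to 4, and 9.89, 8.63 and 10.83 in the Pax5 WT arrays. The empty-vector arrays read 8.54, 8.14 and 7.86. Every array with a Pax5 construct lay above every empty-vector array, although Pax5 WT replicate 2 did so by a margin smaller than the spread of the empty-vector arrays. Against empty vector the difference was 2.14 ± 0.59 (SE) with G183S, or 4.41-fold, with an interval of 0.83 to 3.45 (limma adjusted p = 0.156), and 1.60 ± 0.63 with Pax5 WT, or 3.04-fold (limma adjusted p = 0.247). Without G183S replicate 1 the G183S difference was 2.60 and passed the threshold (limma adjusted p = 0.0384, in a range of 0.0100 to 0.493 over 19 alternative settings; 1.48% of all genes were then called). G183S and Pax5 WT differed by 0.54, with an interval of -0.77 to 1.84, so these arrays leave the order of the Pax5 groups unresolved. That difference was -0.040 without Pax5 WT replicate 2, 1.06 without Pax5 WT replicate 3, 0.996 without G183S replicate 1 and 0.20 without G183S replicate 2.

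The further Cd80 probe set (10435712), annotated to fewer transcripts, showed the same ranking of arrays within the Pax5 groups but not the clean separation. It read 7.39, 9.86, 8.51 and 9.21 in the G183S arrays, 8.101, 7.113 and 8.996 in the Pax5 WT arrays, and 7.65, 7.07 and 6.98 in the empty-vector arrays. On this probe set G183S replicate 1 and Pax5 WT replicate 2 lay within the empty-vector range. With the mean of both probe sets in place of the brighter one, the Cd80 difference from empty vector was 1.82 with G183S (limma adjusted p = 0.218) and 1.22 with Pax5 WT (limma adjusted p = 0.375).

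Cd86, the B7 ligand that pairs with Cd80 in binding CD28, followed another pattern. Its probe set (10439312) read 5.31, 5.36, 4.98 and 5.25 in the G183S arrays, 5.78, 5.74 and 5.99 in the Pax5 WT arrays, and 5.42, 5.28 and 5.36 in the empty-vector arrays. The Pax5 WT arrays lay above all others, and the G183S arrays overlapped with empty vector. Pax5 WT differed from empty vector by 0.49 ± 0.11 (SE), or 1.40-fold, with an interval of 0.25 to 0.72, just short of the threshold (limma adjusted p = 0.0546). It passed without G183S replicate 1 (limma adjusted p = 0.0340), which enters this contrast only through the shared estimate of spread, and without G183S replicate 3 (limma adjusted p = 0.0241), with 5.18% and 2.22% of all genes called, in a range of 0.00855 to 0.215 over 18 alternatives. G183S differed from empty vector by -0.13, with an interval of -0.35 to 0.10 (limma adjusted p = 0.750). It was -0.15 without G183S replicate 1 and -0.045 without G183S replicate 3.

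The direct difference between the constructs for Cd86 was -0.61 ± 0.10 log2 units (SE), G183S minus Pax5 WT, with an interval of -0.84 to -0.39. Only 8 of 19937 genes had a smaller unadjusted p in that comparison, yet the adjusted p was 0.263 with limma. Without G183S replicate 1 the difference was -0.64 and passed (limma adjusted p = 0.0183; 5.58% of all genes were then called), and over 18 alternatives the adjusted p ran from 0.0155 to 0.717. All Cd86 levels lay below the medians of the arrays, which were 6.81 to 6.94. Detection calls were not used here, so how far background signal limits the size of its differences was not tested.

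Icosl, whose product co-stimulates T cells through ICOS (probe set 10364361), read 7.66, 8.84, 8.19 and 8.53 in the G183S arrays. It read 7.49, 7.76 and 8.73 in the Pax5 WT arrays and 7.69, 7.85 and 7.80 in the empty-vector arrays. G183S replicates 2 to 4 and Pax5 WT replicate 3 lay above the empty-vector range, and G183S replicate 1 with Pax5 WT replicate 1 below it. The difference from empty vector was 0.52 ± 0.31 (SE) with G183S (limma adjusted p = 0.624) and 0.21 ± 0.34 with Pax5 WT (limma adjusted p = 0.819). The G183S difference was 0.74 without G183S replicate 1 and 0.34 without G183S replicate 2. Neither the 3 means nor any neighbouring pair of them differed beyond the spread, and the Pax5 WT difference turned to -0.16 without Pax5 WT replicate 3 and was 0.47 without Pax5 WT replicate 1 and 0.33 without Pax5 WT replicate 2.

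Cd274, which encodes the inhibitory ligand PD-L1 (probe set 10462390), was the member that lay below empty vector with both constructs. It read 10.72, 11.06, 11.20 and 11.25 in the G183S arrays, 10.28, 11.15 and 11.32 in the Pax5 WT arrays, and 11.44, 11.50 and 11.54 in the empty-vector arrays. All 7 arrays with a Pax5 construct lay below all 3 empty-vector arrays. The difference from empty vector was -0.43 ± 0.22 (SE) with G183S, with an interval of -0.93 to 0.06 (limma adjusted p = 0.524), and -0.58 ± 0.24 with Pax5 WT, with an interval of -1.11 to -0.05 (limma adjusted p = 0.269). Empty-vector arrays spread little (SD 0.05, n = 3), while the SD was 0.24 in G183S arrays (n = 4) and 0.56 in Pax5 WT arrays (n = 3). Pax5 WT replicate 1 was the lowest array, and without it the Pax5 WT difference was -0.26. Without G183S replicate 1 the G183S difference was -0.32.

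Cd83, the activation marker (probe set 10404840), had the smallest differences of the 7. It ranged from 6.36 to 6.58 in the G183S arrays, from 6.45 to 6.49 in the Pax5 WT arrays and from 6.29 to 6.58 in the empty-vector arrays. The groups overlapped in full. All Cd83 levels lay below the medians of the arrays, which were 6.81 to 6.94. How far background signal limits the size of its differences was not tested. Its difference from empty vector was 0.07 with G183S, with an interval of -0.12 to 0.25, and 0.05 with Pax5 WT, with an interval of -0.14 to 0.25 (limma adjusted p = 0.872 and 0.827). Without G183S replicate 1 the G183S difference was 0.036. Leaving out any 1 array kept the differences from empty vector between 0.00060 and 0.15 with G183S and between -0.012 and 0.14 with Pax5 WT, the lowest without empty-vector replicate 2 and the highest without empty-vector replicate 1.

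Icam1, the adhesion ligand of LFA-1 (probe set 10583519), split the arrays within groups more than between them. It read 10.17, 11.61, 11.72 and 11.71 in the G183S arrays, 9.13, 10.09 and 11.04 in the Pax5 WT arrays, and 10.93, 11.05 and 10.65 in the empty-vector arrays. G183S replicates 2 to 4 lay above every other array, whereas G183S replicate 1 and Pax5 WT replicates 1 and 2 lay below the empty-vector range. Against empty vector the difference was 0.43 ± 0.46 (SE) with G183S (limma adjusted p = 0.845) and -0.79 ± 0.50 with Pax5 WT (limma adjusted p = 0.487). The G183S difference was 0.80 without G183S replicate 1, and the Pax5 WT difference was -0.31 without Pax5 WT replicate 1 and -1.27 without Pax5 WT replicate 3. G183S lay 1.22 ± 0.46 above Pax5 WT, or 2.32-fold, with an interval of 0.18 to 2.25 (limma adjusted p = 0.508). Without G183S replicate 1 that difference was 1.59 and passed the threshold (limma adjusted p = 0.0407, in a range of 0.0174 to 0.845 over 19 alternatives). In that fit 5.58% of all genes were called. Without Pax5 WT replicate 1 the Icam1 difference was 0.74.

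**Figure D2:**
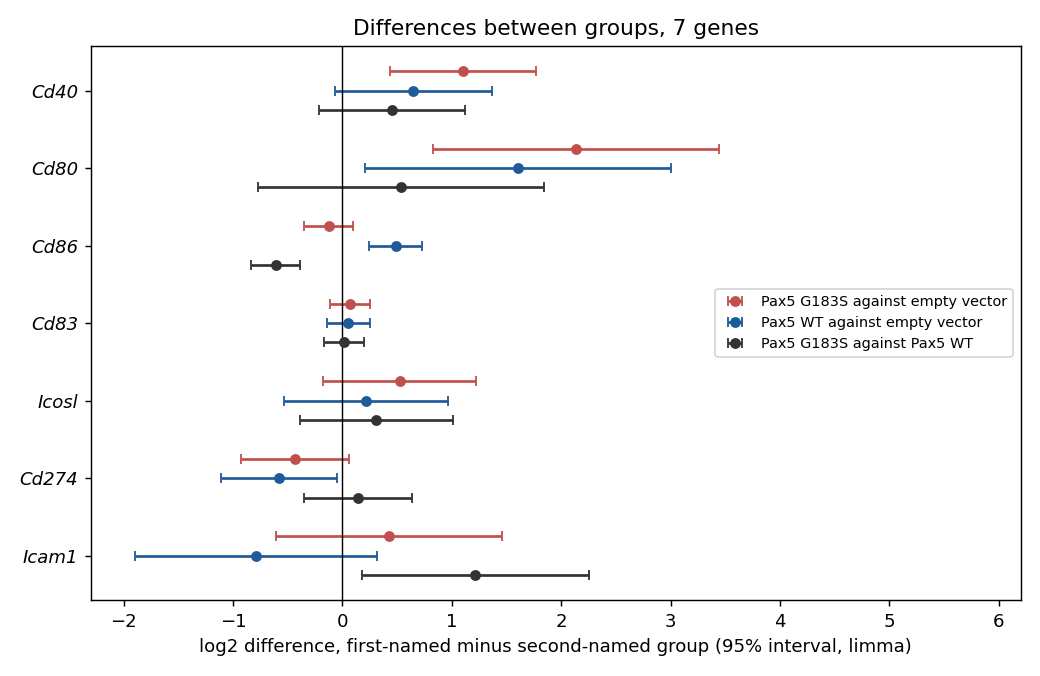
Log2 difference of each gene (x axis) for the 3 comparisons, first-named minus second-named group, with limma's 95% interval as the bar. The intervals of Cd40 and Cd80 with G183S, of Cd80, Cd86 and Cd274 with Pax5 WT, and of Cd86 and Icam1 between the constructs leave out 0, while all adjusted p-values are above 0.05.

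With the mean of the Pax5 groups set against empty vector, 0 of 7 genes were called (1.86% of all genes, 0.767% higher and 1.09% lower), and 3 of 7 had an unadjusted p under 0.05 (Cd40, Cd80 and Cd274; 14.6%). Cd80 lay 1.87 ± 0.53 log2 units (SE) higher, with an interval of 0.69 to 3.06 (limma adjusted p = 0.114), Cd40 0.88 ± 0.27 higher (limma adjusted p = 0.143) and Cd274 differed by -0.51 ± 0.20 (limma adjusted p = 0.270). Cd80 passed without G183S replicate 1, at a difference of 2.10 (limma adjusted p = 0.0316, in a range of 0.0215 to 0.378 over 18 alternatives; 3.20% of all genes were then called). In this comparison Cd80 was above and Cd274 below empty vector with no overlap between groups (6.88% of all genes, 2.99% above and 3.89% below), and Pax5 WT replicate 1 brought Cd40 into the empty-vector range.

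The calls also moved when arrays were weighted by how well they fitted their group, which gave G183S replicate 1 the weight 0.335. Pax5 WT replicate 2 had the weight 3.48, against 0.453 and 0.565 for Pax5 WT replicates 1 and 3. The weighted Pax5 WT mean therefore rests mostly on replicate 2, which had the lowest Cd80 level of its group (8.63). Cd40 (1.26, limma adjusted p = 0.00765) and Cd80 (2.69, limma adjusted p = 0.0100) then rose with G183S against empty vector, 2 of 7 genes where 7.27% of all genes were called. Cd86 rose with Pax5 WT (0.43, limma adjusted p = 0.00855), 1 of 7 where 12.9% were called. Between G183S and Pax5 WT 4 of 7 passed, Cd40, Cd80, Cd86 and Icam1 (13.8% of all genes), and for the Pax5 groups together 2 of 7, Cd40 and Cd80 (9.34%). Cd86 with Pax5 WT also passed with an intensity trend (limma adjusted p = 0.0404; 1.55% of all genes) and with only the arrays compared (limma adjusted p = 0.0409; 2.94%).

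Cd40, Icosl, Icam1 and Cd274, and less closely Cd80, varied together within groups. How often other genes reach such correlations with each other was not tested. After each group's mean was taken off, Cd40 correlated with Icosl at a Pearson r of 0.95, with Icam1 at 0.92 and with Cd274 at 0.83 over the 10 arrays. Icosl and Icam1 gave 0.87, Cd274 and Icam1 0.88, and Cd80 gave 0.81 with Icosl, 0.70 with Cd40, 0.65 with Icam1 and 0.27 with Cd274. Cd86 and Cd83 stood outside that set: their r with the other 5 genes lay between 0.05 and 0.45 for Cd86, and between -0.40 and -0.08 for Cd83. The points share the normalization and, within a culture, the same RNA. These values describe the 10 arrays and carry no test.

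The largest deviations lay in a few cultures. Relative to their own group means, G183S replicate 1 was low for Cd80 (-1.38), Icam1 (-1.13), Icosl (-0.65), Cd40 (-0.56) and Cd274 (-0.34), and Pax5 WT replicate 3 was high for the same 5 genes (1.05, 0.95, 0.74, 0.76 and 0.40, in that order). Pax5 WT replicate 1 was low for Icam1 (-0.96), Cd274 (-0.63), Cd40 (-0.58) and Icosl (-0.51) but not for Cd80 (0.11), which was low in Pax5 WT replicate 2 (-1.15). The empty-vector arrays deviated by at most 0.36, seen for Cd80 in replicate 1. On the first principal component of all genes, G183S replicate 1 and Pax5 WT replicate 1 had the highest scores of their groups (24.8 and 39.6), and Pax5 WT replicate 3 the lowest of its group (2.12). With groups centred, r with that component was -0.97 for Icam1, a size that 0.893% of all genes reached, -0.85 for Cd274 (12.0%), -0.81 for Cd40 (15.8%), -0.76 for Icosl (20.8%) and -0.59 for Cd80 (36.7%). It was 0.12 for Cd86 and 0.09 for Cd83. The part of this component in the group differences was not tested.

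**Figure D3:**
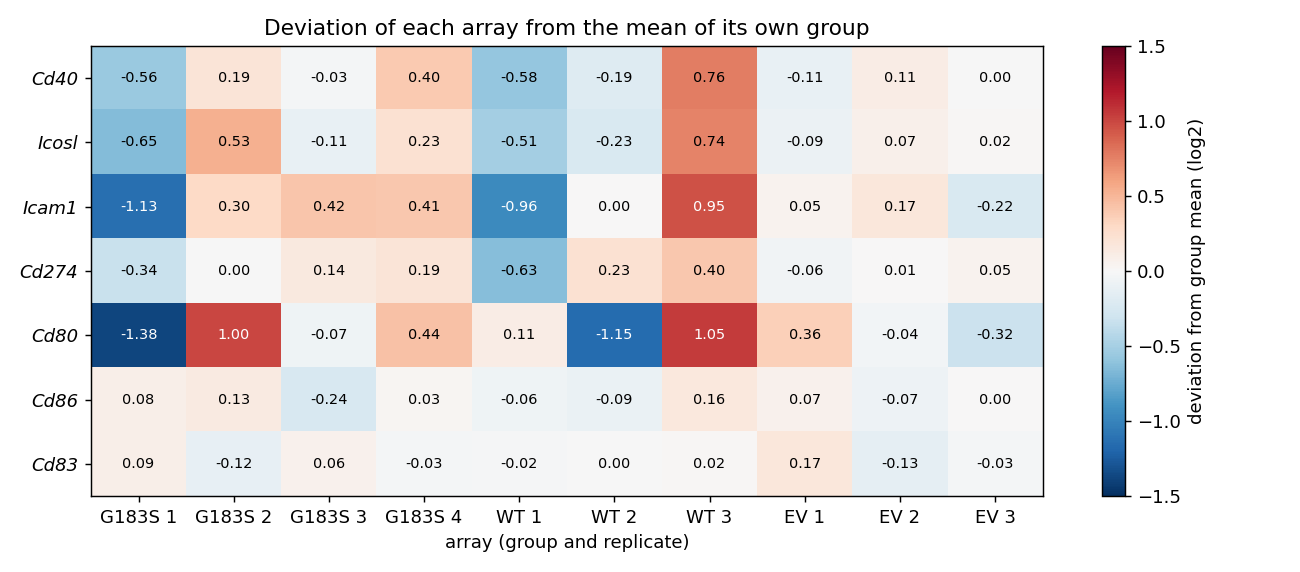
Deviation of each array (x axis) from the mean of its own group for each gene (rows), in log2 units, as colour and number. G183S replicate 1 is low and Pax5 WT replicate 3 high for Cd40, Icosl, Icam1, Cd274 and Cd80, and the rows of Cd86 and Cd83 stay near 0.

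Pax5 transcript did not track these 5 genes upward within groups. The group-centred r with Pax5 was -0.69 for Cd274, -0.59 for Icam1, -0.40 for Cd40, -0.20 for Icosl and 0.07 for Cd80, and 0.58 for Cd86. In Pax5 WT replicate 1, where Pax5 was highest at 10.67, Icam1 and Cd274 had their lowest levels of all arrays. These are descriptions over 10 arrays.

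The start-proximal DNA of the genes that moved together is shown so that the windows can be compared. RefSeq promoter windows (GRCm38.p6) were at hand for 4 of the 7 genes, Icam1, Cd80, Icosl and Cd274, and the 250 bases before the annotated transcript start are printed 5′ to 3′ on the plus strand for the first 3, with motif matches in capitals. They lie at chr9:21015690-21015939 for Icam1, chr16:38458683-38458932 for Cd80 and chr10:78069118-78069367 for Icosl. The Cd80 window lies within the annotated span of its gene, which has transcripts that start further upstream.
Icam1: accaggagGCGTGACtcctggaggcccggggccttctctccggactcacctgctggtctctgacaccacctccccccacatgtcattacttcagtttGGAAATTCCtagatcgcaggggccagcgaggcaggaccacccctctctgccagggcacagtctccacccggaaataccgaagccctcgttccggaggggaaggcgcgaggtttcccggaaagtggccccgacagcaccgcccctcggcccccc
Cd80: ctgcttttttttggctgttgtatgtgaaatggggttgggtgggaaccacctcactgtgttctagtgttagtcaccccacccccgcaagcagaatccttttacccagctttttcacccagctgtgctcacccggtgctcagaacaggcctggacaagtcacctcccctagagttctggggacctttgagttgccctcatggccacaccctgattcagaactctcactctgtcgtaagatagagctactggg
Icosl: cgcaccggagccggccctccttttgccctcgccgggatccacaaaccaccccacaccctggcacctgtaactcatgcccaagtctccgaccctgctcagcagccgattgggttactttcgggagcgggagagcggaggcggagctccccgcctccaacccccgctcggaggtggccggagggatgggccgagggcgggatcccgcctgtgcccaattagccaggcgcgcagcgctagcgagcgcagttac

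Each window was searched on both strands for GCNTGAC, the core of the Pax5 recognition sequence, and for the core of the interferon-stimulated response element. For NF-kB, the search used the variant GGAAATTCC and a narrow form of the consensus that begins with GGG and ends with TTTCC. The motifs do not overlap in these windows, and the variant was added with the Icam1 sequence in view. Icam1 held GCGTGAC from 242 to 236 bases before the start and GGAAATTCC from 153 to 145 bases before it. No match to these forms was found in the other windows, Cd274 included. Whether any window holds an NF-kB site of another form was not tested. The Cd274 window, like that of Cd80, lies within the annotated span of its gene. Among 32851 windows of the same length, 8.79% held the Pax5 core, 1.41% the narrow NF-kB form, 0.286% GGAAATTCC and 2.98% the interferon element. A match of letters is a description of the window only.

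Below CD40, 17 of 21 listed TRAF and NF-kB genes were measured as single-symbol probe sets. With G183S 0 of 17 were called, and with Pax5 WT 2 of 17 rose and 0 fell (0.883% and 0.993% of all genes). Traf5, an adaptor of CD40, averaged 9.19 in Pax5 WT arrays against 7.88 in empty-vector arrays, a difference of 1.32 ± 0.28 log2 units (SE; limma adjusted p = 0.0469), and 7.91 in G183S arrays. Its levels were 8.81, 9.23 and 9.54 in Pax5 WT arrays, 7.30, 7.99, 7.84 and 8.51 in G183S arrays, and 7.61, 8.04 and 7.98 in empty-vector arrays. Pax5 WT stood above both other groups. Of the 17 genes, 4 lay above empty vector without overlap with Pax5 WT and 1 below (11.5% and 12.5% of all genes). G183S minus Pax5 WT was -1.28 for Traf5 (limma adjusted p = 0.395).

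Rel, the c-Rel subunit of NF-kB, rose with Pax5 WT by 0.56 ± 0.12 (SE; limma adjusted p = 0.0484). With G183S its difference from empty vector was 0.40 (limma adjusted p = 0.156). Both calls lay close to the threshold: Traf5 passed in 2 of 10 fits that left out 1 array (without G183S replicates 1 and 4) and Rel in 2 of 10 (without Pax5 WT replicate 1 and G183S replicate 1), with adjusted p up to 0.155 and 0.172 in the others. Traf1, an adaptor that NF-kB induces, read 6.64, 7.29, 7.87 and 7.35 in G183S arrays and 6.56, 6.32 and 6.14 in empty-vector arrays. The difference was 0.95 ± 0.27 log2 units (SE; limma adjusted p = 0.171). Every G183S array lay above every empty-vector array. Of the 17 genes, 3 lay above in this way with G183S and 0 below (5.02% and 6.56% of all genes). The median difference of the 17 genes was 0.14 with G183S and -0.06 with Pax5 WT, beside -0.00 and 0.01 over all genes.

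**Figure D4:**
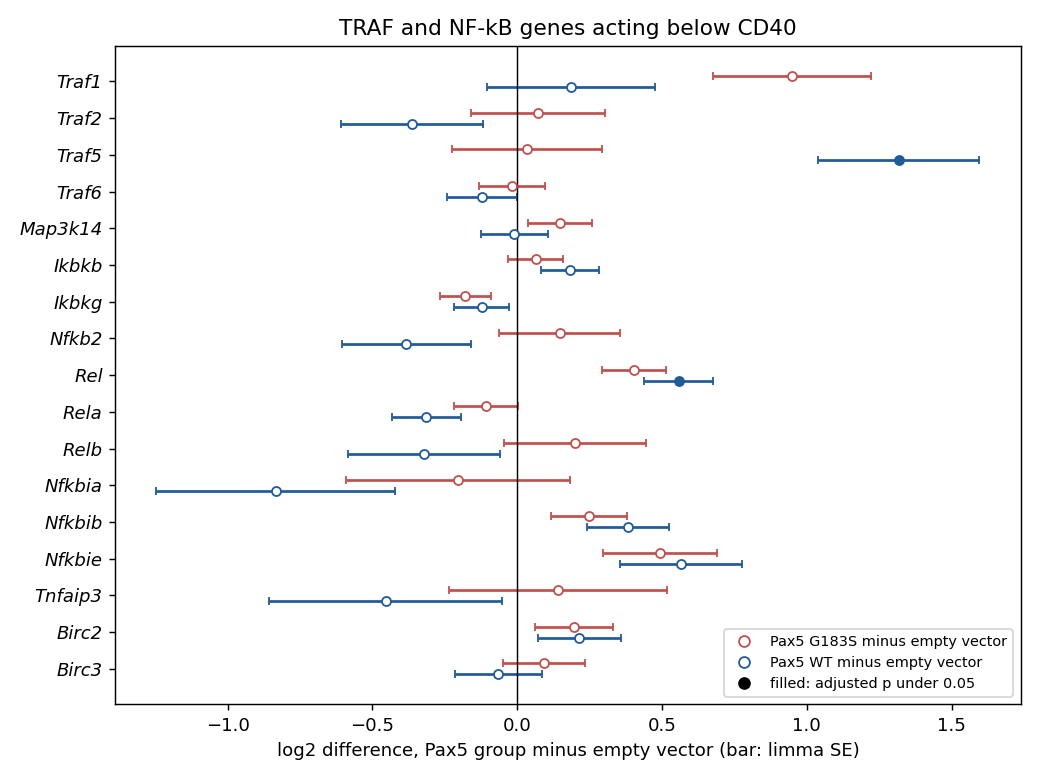
Log2 difference from empty vector (x axis) of 17 TRAF and NF-kB genes with G183S and with Pax5 WT, with limma's SE as the bar and filled points for adjusted p under 0.05. Traf5 and Rel are the filled points, both with Pax5 WT.

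Other ligands of the same families did not pass. Of 11 further B7-type and inhibitory ligand genes, 0 were called with either construct (0.311% of all genes with G183S and 1.88% with Pax5 WT). Median differences were -0.04 with G183S and -0.06 with Pax5 WT. With Pax5 WT 4 of 11 lay below empty vector without overlap (Vsir, Pvr, Nectin2 and Cd200) and 1 above (Vtcn1). Over all genes 12.5% lay below and 11.5% above. With G183S 1 lay below (Vsir) and 0 above, beside 6.56% and 5.02%. The log2 summed level was 11.89 to 12.05 in G183S arrays and 11.65 to 11.91 in Pax5 WT arrays. In empty-vector arrays it was 12.08 to 12.14. Of 7 co-stimulatory ligand genes of the TNF family 0 were called, and Tnfsf18, which encodes GITR ligand, came nearest, with a difference of 0.53 for Pax5 WT (limma adjusted p = 0.0876). Of 10 counter-receptor genes 0 were called. Cd28, the receptor for CD80 and CD86, averaged 11.98 in G183S arrays and 11.84 in Pax5 WT arrays, against 12.32 in empty-vector arrays. Itgal, the alpha chain of LFA-1 and so a partner of ICAM-1, averaged 11.34 and 11.22, against 11.48. Differences from empty vector were -0.33 and -0.47 for Cd28 and -0.13 and -0.26 for Itgal, with G183S given before Pax5 WT.

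Among 16 measured adhesion genes of 17, Pecam1, an adhesion molecule of platelets and endothelium, fell with G183S (-1.54 ± 0.23 SE, limma adjusted p = 0.0303) and with Pax5 WT (-1.54 ± 0.25, limma adjusted p = 0.0216). Cd24a, a surface sialoglycoprotein of B cells, rose with Pax5 WT (1.14 ± 0.24, limma adjusted p = 0.0454). With G183S it read 1.01 higher (limma adjusted p = 0.0906). Over all genes 0.211% were called lower with G183S, and 0.883% higher and 0.993% lower with Pax5 WT. Of the 16 adhesion genes, 2 lay above and 2 below empty vector without overlap with G183S (5.02% and 6.56% of all genes). With Pax5 WT 3 lay above and 3 below (11.5% and 12.5% of all genes). The ICAM family members Icam2, Icam4 and Icam5 differed from empty vector by -0.04, -0.10 and -0.02 with G183S and by -0.06, -0.10 and 0.11 with Pax5 WT. Leaving out 1 array ended the Pecam1 calls in 4 of 10 fits with G183S and 3 of 10 with Pax5 WT, empty-vector replicates 2 and 3 being among them in both, and the Cd24a call in 7 of 10.

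Markers of the labelled cell type were measured beside these results. Of 6 plasma-cell markers (Sdc1, Xbp1, Prdm1, Irf4, Tnfrsf17 and Slamf7) 0 were called with either construct, and their means lay between 8.99 and 12.68 in G183S arrays. With G183S 0 of 6 lay above and 2 below empty vector without overlap (Sdc1 and Tnfrsf17), beside 5.02% and 6.56% of all genes. The median difference was -0.22, beside -0.00 over all genes. With Pax5 WT 2 lay above (Irf4 and Slamf7) and 2 below (Sdc1 and Xbp1), beside 11.5% and 12.5% of all genes. The median difference was 0.06, beside 0.01 over all genes. Of 6 B-cell markers Ms4a1 rose with both constructs (2.27 with G183S and 2.43 with Pax5 WT, limma adjusted p = 0.0171 and 0.0126) and Blnk with Pax5 WT (1.25, limma adjusted p = 0.0216). The others, Cd79a, Cd79b, Cd22 and Cr2, were not called. Without overlap, Ms4a1, Blnk and Cr2 lay above empty vector with each construct (5.02% of all genes with G183S, 11.5% with Pax5 WT). For Cr2 the margin with G183S was minute: G183S replicate 1 read 4.8521 and empty-vector replicate 3 read 4.8513. Cr2 levels ran from 4.80 to 5.09, below the array medians of 6.81 to 6.94, and how far background signal limits its differences was not tested. With Pax5 WT Cd79b lay below (12.5% of all genes). Cd79b averaged 12.52 in G183S arrays and 12.35 in Pax5 WT arrays, against 12.78 in empty-vector arrays. Leaving out 1 array ended the Ms4a1 call with G183S in 4 of 10 fits (without empty-vector replicates 2 and 3 and G183S replicates 2 and 4; adjusted p up to 0.0921) and with Pax5 WT in 1 (without empty-vector replicate 3; 0.0615). The Blnk call ended in 3 (without empty-vector replicates 2 and 3 and Pax5 WT replicate 1; up to 0.0878). Of 7 myeloid and dendritic-cell markers, cells that also carry these ligands, 0 were called, and their summed level was 8.60 to 9.05 in G183S arrays, 8.59 to 8.76 in Pax5 WT arrays and 8.69 to 8.87 in empty-vector arrays (log2 of the sum). Of 6 T-cell markers Cd3g fell with both constructs (-1.15 and -1.09 for G183S and Pax5 WT, limma adjusted p = 0.0171 and 0.0172). Over all genes 0.211% and 0.993% were called lower. Without overlap, 2 of 6 lay below empty vector with each construct, Cd3g and Cd4, and 0 above. Over all genes 6.56% lay below with G183S and 12.5% with Pax5 WT. Cd4 was not called. It read 7.09, 9.29 and 7.60 in empty-vector arrays, 6.40 to 6.77 in G183S arrays and 6.37 to 6.74 in Pax5 WT arrays. The summed level of the T-cell markers was 11.89 to 12.24, 11.21 to 12.48 and 12.25 to 12.64 in G183S, Pax5 WT and empty-vector arrays, most of it from Cd28. The Cd3g calls ended in 4 of 10 such fits with G183S (the same 4 as for Ms4a1; up to 0.0861) and in 3 with Pax5 WT (the same 3 as for Blnk; up to 0.0758). Log2 values have no 0, so no marker could be called absent. In bulk RNA, fewer cells with a transcript and less of it per cell cannot be told apart.

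Genes whose levels followed the members most closely over the 10 arrays were picked by Pearson r, as a description. For Cd40 they were Irgm1 (0.95), Ndrg1 (0.95) and Slc15a3 (0.95), and for Cd80 Rai1 (0.97), C1qtnf1 (0.95) and Gpat3 (0.95). For Cd86 they were Pxdc1 (0.94), Farsb (0.93) and Cd209d (0.90). Pxdc1 averaged 8.03 in G183S arrays and 9.93 in Pax5 WT arrays, against 8.10 in empty-vector arrays, which is the Cd86 pattern with a wider step. For Icosl they were Bfsp2 (0.96), Lin9 (0.96) and Atxn2l (0.95), and for Cd83, which hardly varied, Tcerg1l (0.95), Scg2 (0.93) and Insyn2b (0.93). Cd274 was followed by Cd79b (0.98), a signalling chain of the B-cell receptor, Amigo2 (0.98) and Sapcd1 (0.96), and Icam1 by Tmem60 (0.99), Ifngr2 (0.98), a chain of the interferon gamma receptor, and Zfp280b (0.98). With groups centred, r was 0.98 for both Cd274 with Cd79b and Icam1 with Ifngr2, and 0.68 for Cd86 with Pxdc1.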

How the data were processed

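RNA of 10 cultures was labelled for Affymetrix arrays that probe whole transcripts. The authors deposited 1 log2 value per probe set and array. Per the submitters' processing notes RMA and Partek were used, with no version or role stated; which arrays shared a normalization run is not given in the sources used here. The method equalises the arrays' distributions and so hides any shift common to most genes. Of 34760 probe sets, 21640 had a single symbol in the platform annotation. Keeping the highest-mean probe set of each gene left 19937 genes.

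Groups were compared with limma 3.58.1 (R 4.3.3) in 1 fit over the 10 arrays, with 7 residual and 2.88 prior degrees of freedom; p-values are two-sided with Benjamini-Hochberg adjustment over all genes. The fit was tested on simulated data with independent noise and, for each gene, the same spread in every group. Variation shared between genes and unequal spreads of groups, both seen in these arrays, were not covered by it. Array number limits precision.

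Named are the members and Pax5; list genes called in at least 1 comparison, or up to 3 a list with the smallest p; and the 3 genes with the highest Pearson r to each member, without predicted or clone-named genes, olfactory and vomeronasal receptors, small RNAs or antigen-receptor segments. Cd28, Itgal, Icam2, Icam4 and Icam5 were added as partners or relatives, and the plasma-cell markers as a whole list, after values were seen. Members and lists were chosen with earlier results of these data known. Alternatives were a replicate block, median centring, an intensity trend, no moderation, array weights, only the groups compared, no dim genes, averaged probe sets, all probe sets, and leaving out each array.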

Additional observations from a re-analysis of the deposited data

Results flagged for a closer look

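Icam1 in the 4 G183S arrays is listed because 1 array lay far from the others. Replicate 1 read 10.17 and the others 11.61 to 11.72, so the gap to its nearest neighbour made up 0.927 of the whole range. Chance alone picks out about 1 in 20 groups.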

How the results depend on the processing

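Of 517 member differences recomputed under alternatives, 490 kept their direction and side of the threshold, 17 moved past it and 10 changed sign. The number of members called, 0 in every comparison as reported, was 2 for G183S against empty vector, 1 for Pax5 WT against empty vector, 4 for G183S against Pax5 WT and 2 for the Pax5 groups together under array weights. For Pax5 WT against empty vector it was also 1 with an intensity trend and with only the arrays compared. Leaving out 1 array gave 0 to 1 for each comparison with empty vector and 0 to 2 for G183S against Pax5 WT. Fitting only the groups compared is no separate setting for the Pax5 groups together, and with dim genes left out Cd83 and Cd86 were not tested.

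Differences that changed sign, in log2 units, were as follows when 1 array was left out. For Pax5 WT against empty vector, Cd83 ran from -0.012 (without empty-vector replicate 2) to 0.14, and Icosl from -0.16 (without Pax5 WT replicate 3) to 0.47. For G183S against Pax5 WT, Cd274 ran from -0.17 (without Pax5 WT replicate 1) to 0.35, Cd80 from -0.040 (without Pax5 WT replicate 2) to 1.06, and Cd83 from -0.017 (without G183S replicate 1) to 0.054; Cd83 was also -0.033 with array weights. For the Pax5 groups together, Cd83 ran from -0.0059 (without empty-vector replicate 2) to 0.14 and Icam1 from -0.42 to 0.056 (without Pax5 WT replicate 1). The cause was not tested.

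Deviations of same-numbered arrays from their group means correlated from -0.16 to 0.51. The highest values lay between Pax5 WT and G183S, at 0.51 for replicate 1 and 0.46 for replicate 3. Differently numbered arrays were not set beside them, so whether replicate numbers pair the arrays was not tested. With the replicate block 0 members were called in each comparison, and over all genes 10, against 62 without it, for G183S and 228, against 374 without it, for Pax5 WT, each against empty vector.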
